A study of Mus musculus with 9 samples.

Results

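The 10 genes described here encode 2 receptors, the kinase NIK with its adaptor, 4 transcription factor subunits and 2 inhibitors of the NF-kB pathway. They are Ltbr, Tnfrsf1a, Map3k14, Traf3, Nfkb1, Nfkb2, Rela, Relb, Nfkbia and Tnfaip3, found by gene symbol among the 24321 genes of the deposited expression table. All 10 had a row there. The values are FPKM, fragments per kilobase of transcript scaled to the mapped fragments of the library, in RNA-seq libraries of meningeal lymphatic endothelial cells (MLECs), the lining cells of the lymphatic vessels of the meninges. The question put to these genes was whether any of them differed in level between MLECs of tumor-bearing and control mice, and between the mice bearing either tumor.

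MLECs were taken from male mice, given as 10 weeks old in the labels, that had received PBS (control), GL261 glioma cells or B16 melanoma cells. Each group had 3 libraries, and each library was made from 10 sorted cells out of a pool of meninges from 6 mice. The labels put the injection in the cisterna magna, with collection about 3 weeks after GL261 and about 2 weeks after B16, while the methods of the study describe an injection under the dura. The labels and the methods of the study name CD31, CD45 and LYVE-1 among the sorting stains, while its results text gives PDPN as the lymphatic marker. No agent or allele other than the injected cells was named, and the tumor lines are syngeneic transplanted lines. The labels give no time after PBS. For PBS and both tumors alike, the results text of the study gives 2 weeks and its methods 2 to 3 weeks. The 6 libraries with GL261 or B16 together are called tumor-associated, so that each tumor was also compared with the same 3 control libraries.

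NF-kB proteins are dimers of Rel family subunits that are held back in resting cells and move to the nucleus after a signal. In the canonical pathway, receptors such as the TNF receptor lead to the breakdown of the inhibitor IkB-alpha and to the release of dimers that hold RelA. In the noncanonical pathway, receptors such as the lymphotoxin beta receptor stabilize the kinase NIK, which lets the Nfkb2 precursor be cut to its short form, the partner of RelB. Lymphotoxin beta receptor signaling in stromal and endothelial cells is known for its part in building lymph nodes, and the genes for IkB-alpha and A20 are known targets of NF-kB that in turn limit it.

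The control and tumor-associated libraries differed in more than these genes. Control libraries listed 7303 to 8688 genes above 0 and tumor-associated libraries 8736 to 10852, and every control library had fewer aligned reads than every tumor-associated library, so depth and tumor status cannot be told apart. The FPKM files hold no counts, so no counting error can be given for a single value. The general transcription gene Tbp was at 0 in 2 controls, so a 0 is given here as listed at 0. The label of the cells was checked against markers. All 8 lymphatic endothelial markers were above 0 in every library, but their summed FPKM was 10398 to 16716 in control and 979 to 6737 in tumor-associated MLECs, and 4 of the 8 fell. Those 4 were Flt4, Reln, Mmrn1 and Ccl21c. Ccl21c alone made up most of each control sum, with 7384, 13803 and 9750 FPKM. Lyve1 and Pdpn kept overlapping ranges, Lyve1 with 974 to 1705 FPKM in control and 628 to 1895 in tumor-associated libraries. The 10 blood endothelial markers summed to 2339.8 to 3111 FPKM in control and 6117 to 9569 in tumor-associated MLECs, and 8 of the 10 rose. The leukocyte genes Ptprc, Adgre1 and Cd3e were listed at 0 in all 9 libraries, and the leukocyte markers summed to 77.1 to 84.8 FPKM in control and 1.17 to 41.1 in tumor-associated libraries. The control sums rest on few genes, as at most 3 of these 11 markers were above 0 in any control. In tumor-associated libraries it was at most 5. The control sums came from Mrc1 (11.3, 54.3 and 82.2 FPKM), Cd68 (43.2, 16.1 and 0) and Aif1 (22.7, 14.4 and 0). In tumor-associated libraries Mrc1 had 0.304 to 17.0 FPKM, Cd68 0.428 to 23.7 and Aif1 0 to 12.7. Mrc1 fell in GL261 against control (limma adjusted p = 0.0216). The 8 mural and fibroblast markers summed to 15.7 to 532 FPKM in control and 0.0851 to 11.4 in tumor-associated libraries, and none of the latter was above the lowest control. Acta2 alone, at 505 FPKM in control 1, made up most of the highest sum. The 9 melanocyte and glial markers reached a summed 0.997 FPKM at most in control libraries and 7.07 at most in GL261 libraries, and B16 libraries had 25.3 to 37.3. Mlana, Tyr, Tyrp1 and Gfap of that list were listed at 0 in all 9 libraries, Pmel was above 0 in 1 GL261 library and Dct in 1 control and 1 B16 library. S100b, a glial and melanocyte gene, made up nearly all of the B16 sums, with 37.0, 36.5 and 25.3 FPKM, and it rose in B16 against control (limma adjusted p = 0.0135).

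Tests were run on log2(FPKM + 1), a scale that understates changes of low genes, with limma on the 9955 genes at 1 FPKM or more in at least 3 libraries. A gene was called when its adjusted p, after Benjamini-Hochberg adjustment over those genes, was under 0.05. All 10 genes passed this filter, but Map3k14, Traf3 and Tnfaip3 passed it through tumor-associated libraries only, since they were listed at 0 in all 3 controls, as were 6.56% of the genes tested. Single genes were also compared by a two-sided exact permutation test over all 84 assignments of 6 and 3 libraries, which cannot go below p = 0.0119.

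Tnfrsf1a, Nfkbia and Tnfaip3 rose in tumor-associated MLECs. The background for these 3 of 10 genes is that 2.9% of all genes tested were called higher and 1.02% lower in the same comparison, and that none of the 10 was called lower. Tnfaip3 entered the test only through the libraries in which it is high, so its call is a description and adds no support to that count. The same 3 genes were the ones whose tumor-associated libraries all lay above all control libraries, as was true of 6.08% of the genes tested. Ltbr and the 4 subunit genes kept overlapping ranges, with differences of -0.03 to 0.27 beside a median of 0.20 over all genes tested. In these bulk libraries, fewer cells of a type and less RNA per cell cannot be told apart.

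**Figure D1:**
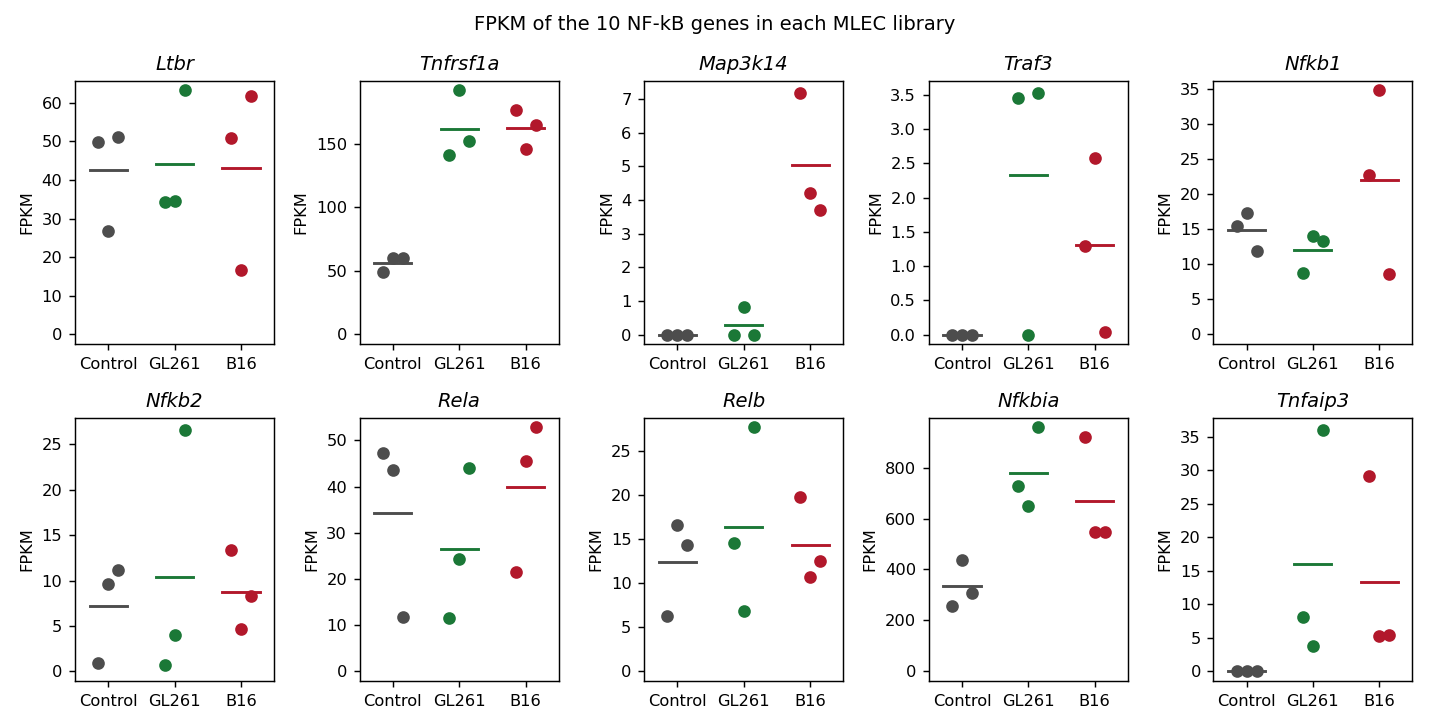
Each panel plots 1 gene, with FPKM on a linear axis from 0 and the 3 groups side by side. Points are libraries and bars are means of 3 libraries. Tnfrsf1a, Nfkbia and Tnfaip3 are the panels in which all 6 tumor-associated points lie above the 3 control points, and Map3k14 is the panel in which only the B16 points stand apart.

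Promoter windows from RefSeq are shown for the genes that rose, because they differ in whether they hold the NF-kB consensus motif, and the window of Nfkb2 is shown as that of a gene with several copies and no call. Each runs 5′ to 3′ on the gene's strand from 250 bases before to 50 bases after a RefSeq start, on GRCm38.p6, a later build than the mm9 of the expression table. Capitals mark matches to the consensus of 10 bases, searched on both strands. The windows are Tnfrsf1a at chr6:125349473-125349772 (plus strand), Nfkbia at chr12:55492598-55492897 (minus strand), Tnfaip3 at chr10:19015361-19015660 (minus strand) and Nfkb2 at chr19:46304487-46304786 (plus strand).
Tnfrsf1a: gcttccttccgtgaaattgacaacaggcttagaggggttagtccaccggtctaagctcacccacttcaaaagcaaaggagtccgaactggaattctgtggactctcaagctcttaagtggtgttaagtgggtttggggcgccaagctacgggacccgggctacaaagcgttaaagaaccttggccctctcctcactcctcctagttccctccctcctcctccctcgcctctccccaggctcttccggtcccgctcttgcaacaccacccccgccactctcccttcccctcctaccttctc
Nfkbia: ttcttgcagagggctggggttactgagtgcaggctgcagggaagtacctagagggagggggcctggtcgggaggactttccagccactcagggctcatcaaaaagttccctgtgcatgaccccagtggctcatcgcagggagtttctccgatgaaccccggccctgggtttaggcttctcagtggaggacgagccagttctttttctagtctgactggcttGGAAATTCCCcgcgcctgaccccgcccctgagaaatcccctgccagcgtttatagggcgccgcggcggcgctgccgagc
Tnfaip3: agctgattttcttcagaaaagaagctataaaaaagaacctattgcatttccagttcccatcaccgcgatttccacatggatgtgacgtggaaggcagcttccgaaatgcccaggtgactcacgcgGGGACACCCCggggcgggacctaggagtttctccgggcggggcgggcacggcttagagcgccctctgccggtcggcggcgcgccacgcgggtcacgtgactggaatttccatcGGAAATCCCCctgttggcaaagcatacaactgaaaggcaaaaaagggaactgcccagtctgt
Nfkb2: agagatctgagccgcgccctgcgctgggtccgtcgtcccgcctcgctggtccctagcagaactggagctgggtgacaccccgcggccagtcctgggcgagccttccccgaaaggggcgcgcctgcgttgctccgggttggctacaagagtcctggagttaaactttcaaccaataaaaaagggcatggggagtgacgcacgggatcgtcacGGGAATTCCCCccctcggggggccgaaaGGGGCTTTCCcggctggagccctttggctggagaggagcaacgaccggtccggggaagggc
The Nfkbia window held 1 match, the Tnfaip3 window 2 matches, and the Tnfrsf1a window none. The Nfkb2 window held 3 matches, of which 2 overlap by all but 1 base and appear as 1 run of capitals. A second Tnfaip3 window held none, and the other 2 Nfkb2 windows held 2 and 1. The table had windows for 8 of the 10 genes, and none for Nfkb1 and Relb. Among those 8, Traf3 also held 1 match, while Ltbr, Map3k14 and Rela held none. At least 1 match was found in 4 of the 8 genes, against 9.55% of the 27025 genes and 8.46% of the 32851 windows in the table. A match is a run of letters and not a measured binding site.

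Both receptor genes lie on chromosome 6, 35476 bases apart on mm9 with Scnn1a between them, and they differed in their values. Tnfrsf1a (chr6:125299380-125312502, plus strand) encodes TNF receptor 1, the main receptor for TNF on most cells. Ltbr (chr6:125256589-125263903, minus strand) encodes the lymphotoxin beta receptor, whose ligands are membrane lymphotoxin and LIGHT.

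Tnfrsf1a had 49.5, 60.0 and 60.2 FPKM in control libraries 1 to 3. It had 141, 192 and 152 FPKM in the GL261 libraries and 177, 146 and 165 FPKM in the B16 libraries. The lowest tumor-associated library thus stood well above the highest control, and the ranges of both tumors overlapped. The mean was 56.6 ± 6.10 FPKM (SD, n = 3) in control and 162 ± 19.6 FPKM (SD, n = 6) in tumor-associated MLECs, a ratio of 2.87. The limma difference on log2(FPKM + 1) was 1.50 (SE 0.29, 95% interval 0.88 to 2.12, adjusted p = 0.0109), and the exact permutation p was 0.0119, the smallest the design allows. Ranked within each library, Tnfrsf1a moved from the 76.1 to 83.7 percentile of the genes above 0 in controls to the 92.2 to 94.5 percentile in tumor-associated libraries. At the same place from the top, a percentile is higher where more genes are listed, as in the tumor-associated libraries. The call was lost without the limma trend (adjusted p = 0.0655) and with log2 aligned reads in the fit, where the difference was 1.54 and the adjusted p 0.281, and it remained when any 1 library was left out.

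Ltbr had 49.9, 26.8 and 51.1 FPKM in control libraries, 34.2, 34.7 and 63.3 in GL261 and 51.0, 16.8 and 61.9 in B16 libraries. The groups overlapped over most of their range, and the lowest value was a B16 library. Tumor-associated minus control, the limma difference was -0.03 (SE 0.50, 95% interval -1.11 to 1.04, adjusted p = 0.980), so a change of up to about 1 in either direction lay within the interval. The ratio of Tnfrsf1a to Ltbr within a library does not depend on how libraries are scaled. It was 0.992, 2.24 and 1.18 in control, 4.13, 5.55 and 2.40 in GL261 and 3.46, 8.65 and 2.67 in B16 libraries. Each tumor-associated ratio was above each control ratio, by a narrow margin between control 2 and GL261 3. This ratio was chosen after the values were seen and was not tested.

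Map3k14 and Traf3, both of the noncanonical arm, were close to the limit of what these libraries list. Map3k14 (chr11:103081076-103128786, minus strand) encodes NIK, the kinase that starts that arm. It was listed at 0 in all 3 control libraries, at 0, 0.808 and 0 FPKM in GL261 libraries and at 7.17, 4.22 and 3.69 FPKM in B16 libraries. The B16 libraries were therefore all above both other groups. For B16 against control the limma difference was 2.55 (SE 0.61, 95% interval 1.21 to 3.89), which missed the threshold with an adjusted p of 0.0562, and for GL261 against B16 it was -2.26 (SE 0.61, adjusted p = 0.381). A B16 range wholly above that of GL261 was found for 6.66% of genes tested, and one wholly above control for 10.2%. Map3k14 reached 1 FPKM only in the 3 B16 libraries, so it was tested only through the group in which it is high. These B16 comparisons are therefore a description and add no support. S100b was likewise highest in the 3 B16 libraries, and its part in the Map3k14 values was not tested. With both tumors joined, the adjusted p was 0.334 and the exact permutation p 0.155. Map3k14 shares its strand with part of 1700028N14Rik, so reads in the overlap cannot be assigned to either gene with certainty.

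Traf3 (chr12:112404581-112505364, plus strand) encodes the adaptor that keeps NIK low in resting cells. It was listed at 0 in all control libraries, at 3.45, 0 and 3.53 FPKM in GL261 and at 1.30, 2.58 and 0.0321 FPKM in B16 libraries. Its tumor-associated values thus reached down to 0, where they met the controls. The limma difference was 1.24 (SE 0.65, 95% interval -0.16 to 2.63, adjusted p = 0.325) and the exact permutation p was 0.0952. Traf3 overlaps 4930595D18Rik on the other strand, and the strand setting of the counting was not given in the sources used here.

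The 4 subunit genes were measured in every library and none passed the threshold in any of the 4 comparisons. Rela (chr19:5637483-5648130, plus strand) encodes the RelA subunit, the main activating partner of canonical dimers. It had 47.4, 43.6 and 11.7 FPKM in control, 11.4, 24.3 and 43.9 in GL261 and 21.5, 45.5 and 52.8 in B16 libraries. Control 3 and GL261 1 stood far below the other libraries of their groups, and all 3 groups overlapped. Nfkb1 (chr3:135247619-135354511, minus strand) encodes the precursor of p50, the usual partner of RelA. It had 15.4, 17.2 and 11.9 FPKM in control, 8.71, 14.0 and 13.2 in GL261 and 22.7, 34.8 and 8.60 in B16 libraries. The B16 libraries held both the highest and the lowest value.

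Nfkb2 (chr19:46379227-46386580, plus strand) encodes the precursor of p52, and Relb (chr7:20191566-20214787, minus strand) encodes RelB, its noncanonical partner. Nfkb2 had 0.886, 9.60 and 11.1 FPKM in control, 0.649, 4.02 and 26.6 in GL261 and 13.4, 4.64 and 8.30 in B16 libraries. The GL261 libraries alone spanned the whole range of the gene. Nfkb2 overlaps Psd on the other strand, and its value is uncertain to that extent. Relb had 6.22, 16.5 and 14.3 FPKM in control, 14.5, 6.79 and 27.7 in GL261 and 19.7, 10.7 and 12.5 in B16 libraries. Here too each group held low and high libraries.

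For the subunit genes, tumor-associated minus control, the limma difference was 0.02 for Rela (95% interval -1.31 to 1.34, adjusted p = 0.993). It was 0.03 for Nfkb1 (-1.23 to 1.29, adjusted p = 0.985), 0.26 for Nfkb2 (-1.80 to 2.32, adjusted p = 0.918) and 0.27 for Relb (-1.04 to 1.57, adjusted p = 0.859). All 4 intervals reach past 1 in both directions, so the data do not show that the subunits stayed level. Within libraries, Nfkb1 was above Nfkb2 in 8 of 9 and Rela above Relb in 7 of 9, with the exceptions in different libraries. Between the tumors, the differences GL261 minus B16 were -0.66 for Nfkb1 (SE 0.67), -0.66 for Rela (SE 0.71), -0.57 for Nfkb2 (SE 1.14) and 0.03 for Relb (SE 0.72), none of them past the threshold.

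Nfkbia (chr12:56590398-56593634, minus strand) encodes IkB-alpha, which holds canonical dimers in the cytoplasm and is made anew after NF-kB acts. It was the highest of the 10 genes in all 9 libraries. Nfkbia had 256, 437 and 309 FPKM in control, 729, 648 and 962 in GL261 and 921, 546 and 547 in B16 libraries. All tumor-associated values lay above the highest control, the nearest being 2 B16 libraries. The mean was 334 ± 92.9 FPKM (SD, n = 3) in control and 725 ± 181 FPKM (SD, n = 6) in tumor-associated MLECs, a ratio of 2.17. The limma difference was 1.11 (SE 0.27, 95% interval 0.54 to 1.69, adjusted p = 0.0346), with an exact permutation p of 0.0119. By rank within a library it moved from the 94.4 to 97.1 percentile to the 97.5 to 98.5 percentile. Control 2 (97.1) and B16 3 (97.5) lay close, and this percentile too is higher where more genes are listed. The adjusted p rose above 0.05 in 12 of 17 alternatives, and was highest with log2 aligned reads in the fit (0.317). Among them were rescaling each library to the same sum (0.085), quantile normalization (0.124) and leaving out control 1 (0.124), control 3, any GL261 library or B16 1, with differences of 0.83 to 1.33 throughout.

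Tnfaip3 (chr10:18720716-18735463, minus strand) encodes A20, a ubiquitin-editing enzyme that switches off signaling from TNF receptor 1 and is itself induced by NF-kB. It was listed at 0 in all 3 control libraries. It had 8.08, 3.74 and 36.1 FPKM in GL261 and 29.2, 5.21 and 5.39 FPKM in B16 libraries. Every tumor-associated library thus listed it, with 1 high library in each tumor group. The limma difference was 3.48 (SE 0.83, 95% interval 1.67 to 5.28, adjusted p = 0.0355) and the exact permutation p 0.0119. The size of this difference depends on the pseudocount, since the control value is 0, and no fold is given. Tnfaip3 kept its call in 6 of 16 alternatives. It lost the call with log2 aligned reads in the fit (adjusted p = 0.209), without a filter on low values (0.0744) and with the replicate number as a block (0.0543). The call was also lost whenever 1 library other than GL261 2 or B16 2 was left out, at adjusted p of up to 0.0825.

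Taken by tumor, 2 of the 10 genes rose in GL261 MLECs and 1 in B16 MLECs, where 2.58% and 1.61% of all genes tested were called higher. Tnfrsf1a rose in both, by 1.49 in GL261 (SE 0.33, adjusted p = 0.0321) and 1.51 in B16 (SE 0.33, adjusted p = 0.0410). Both comparisons share the same control libraries. Nfkbia rose in GL261 by 1.24 (SE 0.30, adjusted p = 0.0465), and in B16 its difference was 0.99 (adjusted p = 0.129). Tnfaip3 missed the threshold in each tumor alone, with 3.55 in GL261 (adjusted p = 0.0828) and 3.41 in B16 (adjusted p = 0.113). Leaving out any 1 of the 9 libraries, controls included, ended the B16 call of Tnfrsf1a, at adjusted p of 0.0509 to 0.131. The GL261 call of Tnfrsf1a was lost in 4 of those 9 cases, without control 1 or any GL261 library, and that of Nfkbia in 7 of 9. Rescaling each library to a common sum also ended the calls of Tnfrsf1a in GL261 (adjusted p = 0.0826) and B16 (0.0612) and of Nfkbia in GL261 (0.144).

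Between the tumors, none of the 10 genes was called, and 0.01% of genes tested (1 gene) were. The difference GL261 minus B16 was -0.01 for Tnfrsf1a (95% interval -0.74 to 0.72), 0.24 for Nfkbia (-0.42 to 0.90) and 0.14 for Tnfaip3 (-2.04 to 2.32). At an unadjusted p under 0.05, Map3k14 was the 1 gene of the 10, and 548 of all genes tested were. Map3k14 had entered the test only through the B16 libraries, in which it is high. A permutation test of 3 libraries against 3 could not have gone below p = 0.1.

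**Figure D2:**
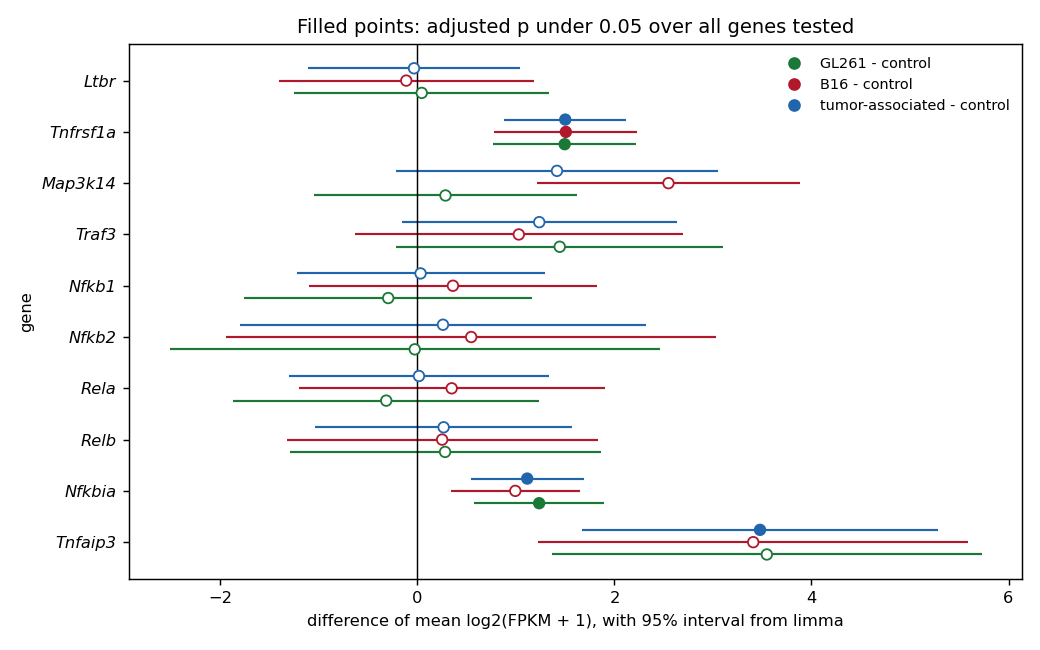
Points give the difference of mean log2(FPKM + 1) from control for the 10 genes, with GL261, B16 and both tumors joined in separate colors, and lines give the 95% interval from limma. Filled points had an adjusted p under 0.05. Tnfrsf1a is filled in all 3 comparisons, Nfkbia in 2 and Tnfaip3 with both tumors joined, while the intervals of Ltbr and the 4 subunit genes span 0.

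The order of the 10 genes by FPKM, which is scaled by length, was much alike in the 3 groups. Nfkbia came first by median (309 FPKM in control and 689 in tumor-associated MLECs) and Tnfrsf1a next (60.0 and 159), and the ranges of these 2 did not overlap. In controls the range of Tnfrsf1a overlapped that of Ltbr, which came next, and in each tumor group it did not. Ltbr, Rela, Nfkb1, Relb and Nfkb2 followed in control and in both tumors joined, and no neighbors among them had separate ranges. Tnfaip3 stood between Relb and Nfkb2 in the joined tumor-associated libraries, with a median of 6.73 FPKM, and Map3k14 and Traf3 were lowest.

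The study ranked genes by the power of a ROC curve, which is 1 when 2 groups do not overlap and 0 when they are mixed. From the deposited FPKM, a gene was called at a power above 0.4 and a natural-log fold of at least 0.25. It also had to be above 0 in at least 10% of the libraries of either group. This called Tnfrsf1a, Nfkbia and Tnfaip3 (power 1.00 each), Traf3 (0.833) and Map3k14 (0.667), all higher. These 5 of 10 stand against 3318 genes called higher, which were 24.5% of the genes listed above 0. The power of the other 5 genes was 0.00 to 0.222. The study reported far fewer genes as higher in tumor-associated MLECs, so this recomputation did not reproduce its list. The cause of that mismatch was not tested. After each library was scaled as in the LogNormalize step, 2 of the 10 genes were called. The share of all genes called after that scaling was not counted, and the 24.5% holds for the unscaled values. Scaling cannot change the power of Map3k14, Traf3 and Tnfaip3, whose control values are all 0. A call that any of these genes lost after scaling was thus lost through the fold minimum.

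By root mean square difference of centred log2(FPKM + 1) over the 9 libraries, the genes most like Tnfrsf1a were Gpr182 (0.156), Stx12 (0.228) and Sod1 (0.254), and Nfkbia was number 35 (0.367). Those most like Nfkbia were 1810037I17Rik (0.214), Cmpk1 (0.271) and Psmd12 (0.276), with Tnfrsf1a at number 36. The nearest to Tnfaip3 were Vrk1 (0.652), P4ha2 (0.672) and Haus5 (0.732), which were farther from it than those of the other 2. These distances describe 9 libraries that share their depth and group differences.

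The wider pathway was described with 82 other genes in lists by role. All 82 were in the table, 59 passed the filter, and 3 of these (5.08%) rose and 0 fell in tumor-associated MLECs, beside the 2.9% called higher and 1.02% called lower among all genes tested. Their median difference was 0.96, that of the 10 genes 0.69 and that of all genes tested 0.20. Of these genes, 12 of the 59 and 3 of the 10 (Map3k14, Traf3 and Tnfaip3) reached 1 FPKM in no control library and were tested through tumor-associated libraries only. Among all genes tested, 9.2% did so. How far this moved the medians was not measured. Of the 3 list genes that rose, Bcl3 and Cx3cl1 were among those 12. No weight is put on the medians or on the share of 5.08%. After each library was rescaled to a common sum, the median of all genes was 0.05.

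Of 10 other receptors, 8 were tested and none was called. Tnfrsf1b, the second TNF receptor, was listed at 0, 0.221 and 0 FPKM in control, 7.88, 3.45 and 4.77 in GL261 and 11.03, 2.54 and 2.04 in B16 libraries. Its tumor-associated values were all higher than control, as in 6.08% of genes tested, at an adjusted p of 0.0758. It too passed the filter through tumor-associated libraries only. Tnfrsf11a, the receptor RANK, had 5.42 to 15.1 FPKM in control and 0.0462 to 2.52 in tumor-associated libraries, all lower, at an adjusted p of 0.130. The share of all genes tested with every tumor-associated library below control was not counted. Of 10 ligand genes, 2 were tested and none was called, and Tnf, Tnfsf11, Tnfsf13b, Tnfsf14, Cd40lg and Il1b were listed at 0 in all 9 libraries. Ltb, the membrane-bound part of the lymphotoxin beta receptor ligand, was listed at 0 in control, at 0, 4.97 and 11.3 FPKM in GL261 and at 0, 6.21 and 4.41 FPKM in B16 libraries (adjusted p = 0.255). The other ligand tested, Tnfsf12, had an adjusted p of 0.723.

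Among 20 adaptors and kinases, 18 were tested and none was called, with a median difference of 0.04. Tradd, which joins TNF receptor 1 to its signaling complex, had 81.5, 26.3 and 29.5 FPKM in control, 7.94, 12.6 and 5.24 in GL261 and 22.6, 0 and 24.8 in B16 libraries. Its values were thus lower in every tumor-associated library, by a narrow margin in B16 (24.8 against 26.3 FPKM in control 2), at an adjusted p of 0.222. How many of all genes tested were lower in this way was not counted. Birc3, a ubiquitin ligase of the same complex, had an adjusted p of 0.287. Rel, the remaining subunit gene, had a difference of 1.02 (adjusted p = 0.579).

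All 13 inhibitors and related regulators other than Nfkbia and Tnfaip3 were tested and 1 rose. Bcl3, an atypical IkB protein that binds p50 and p52 dimers in the nucleus, was listed at 0, 0.985 and 0 FPKM in control, 24.0, 2.90 and 27.7 in GL261 and 23.2, 18.2 and 23.4 in B16 libraries. All tumor-associated values exceeded control, and GL261 2 came nearest to it. Its limma difference was 3.82 (SE 0.78, adjusted p = 0.0154), but Bcl3 passed the filter through tumor-associated libraries only. Nfkbid, another atypical IkB gene, had 0 in all controls and in 1 library of each tumor (adjusted p = 0.228).

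Of 20 genes known as canonical targets in endothelium, 16 were tested and 2 rose. The difference was above 0 for 14 of the 16 (57.2% of all genes tested), with a median of 2.27. Of these 16, 6 genes reached 1 FPKM in no control library, so they could pass the filter through tumor-associated libraries only. How far this moved that tally and that median was not measured. Cx3cl1, a membrane-bound chemokine, had 0, 0 and 0.283 FPKM in control, 10.4, 4.49 and 7.59 in GL261 and 23.6, 12.4 and 34.8 in B16 libraries, without overlap. Its limma difference was 3.65 (SE 0.75, adjusted p = 0.0170), but Cx3cl1 too passed the filter through tumor-associated libraries only. Selp, the adhesion molecule P-selectin, had 0.945, 34.7 and 1.54 FPKM in control and 24.1 to 81.6 in tumor-associated libraries, so the groups overlapped through control 2. Its adjusted p was 0.0443, and the call was kept in 2 of 17 alternatives. Of 8 genes known as targets of RelB and p52, 1 was tested: Cxcl12, with a difference of -1.85 (adjusted p = 0.264). Cxcl13, Madcam1, Glycam1 and Chst4 of that list were listed at 0 in all 9 libraries. Ccl21a of that list was not tested, at 0.627 to 2.87 FPKM in control and 0.138 to 0.408 in tumor-associated libraries. Another Ccl21 copy, Ccl21c, was placed here among the lymphatic endothelial markers. Ccl21c had 7384 to 13803 FPKM in control and 142 to 4187 in tumor-associated libraries, and it fell (limma adjusted p = 0.0320).

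**Figure D3:**
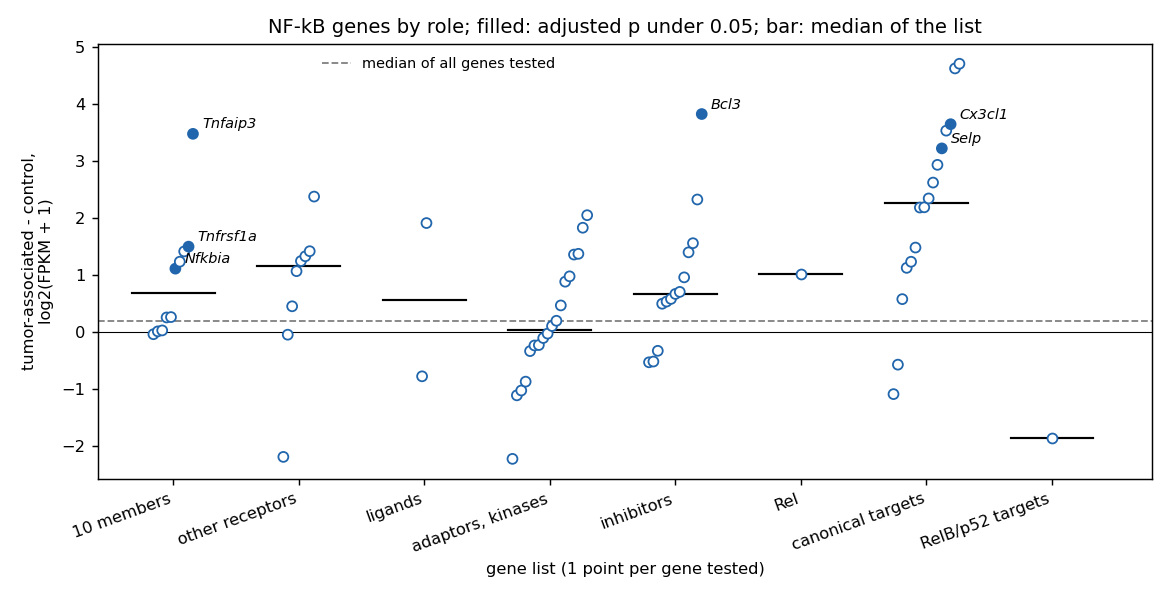
Each point is 1 tested gene, placed by its list and by the difference of mean log2(FPKM + 1) between tumor-associated and control MLECs. Filled, named points had an adjusted p under 0.05, short bars are list medians and the dashed line is the median of all 9955 genes tested. Of the 16 canonical targets, 14 lie above 0, among them 6 that were tested through tumor-associated libraries only, and adaptors and kinases lie on both sides of 0.

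The marker values given above bear on each of these results. Tnfrsf1a, Nfkbia, Tnfaip3, Bcl3 and Cx3cl1 were higher in the libraries in which the summed blood endothelial markers were higher, Ly6c1 among them at 0 in all controls, the summed lymphatic endothelial markers were lower and more genes were listed. Selp followed this by group mean, with control 2 above B16 2. The part of these differences in the NF-kB values was not tested.

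**Figure D4:**
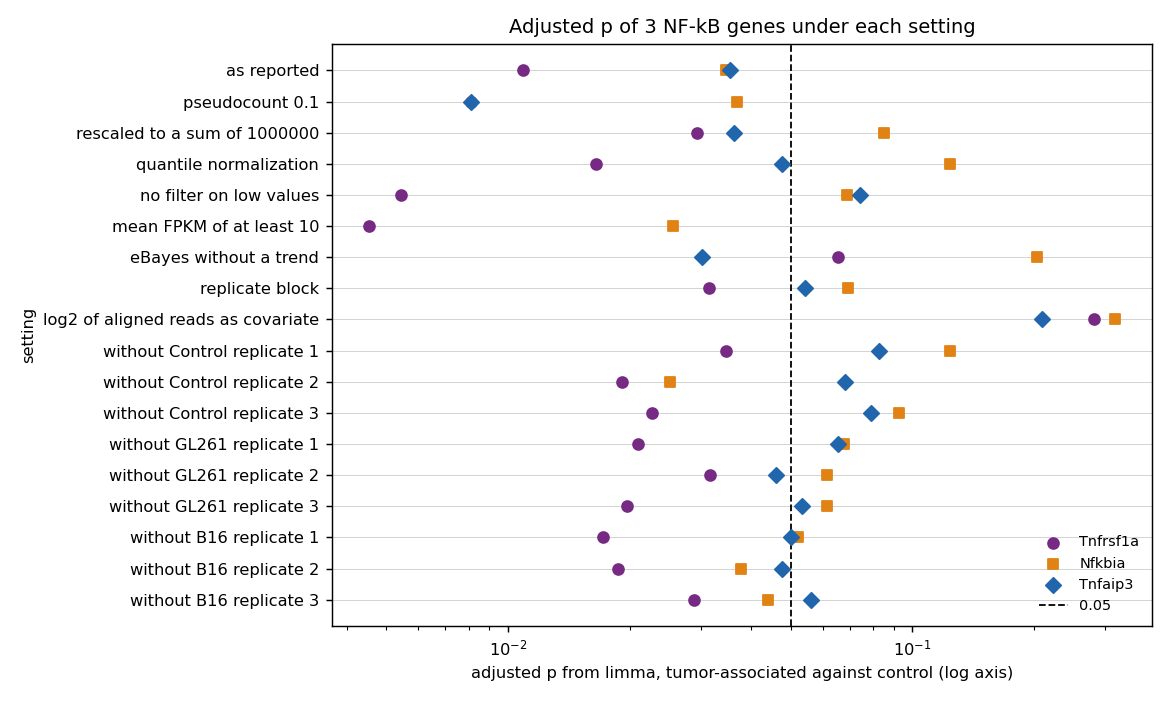
The adjusted p from limma for tumor-associated against control MLECs is plotted on a log axis for the 3 genes that rose, as reported and under each alternative setting, with a dashed line at 0.05. Tnfrsf1a lies right of the line in 2 of 17 alternatives, Nfkbia in 12 of 17 and Tnfaip3 in 10 of 16.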

How the data were processed

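MLEC libraries of 10 sorted cells were made with Smart-seq2 and sequenced as pairs of 150 bp. The authors aligned the reads to mm9 with TopHat2 2.0.12 and deposited FPKM from Cufflinks 2.2.1, which were the values used here. The annotation and strand setting were not given in the sources used here, and aligned reads per library came from the study's own listing.

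From the deposited FPKM, log2(FPKM + 1) was tested with limma 3.58.1 in R 4.3.3 (lmFit, eBayes with a trend). Tumor against control used 2 groups, and the other comparisons used all 9 libraries in 3 groups. Benjamini-Hochberg adjustment covered all 9955 genes tested, with a threshold of 0.05. Libraries were grouped by their labels, and replicates are separate pools of mice. No 2 libraries held the same values. Intervals are 95% intervals. Gene positions came from GENCODE M1 (mm9), and promoters from RefSeq. Python 3.11.15, numpy 2.4.6, pandas 2.3.3 and matplotlib 3.10.9 were used.

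All 10 genes were named in every library. From each wider list, called genes were named (at most 4), made up to 2 with the smallest unadjusted p. One leukocyte marker is not reported here. The 3 genes most alike in pattern were named for each called gene. The genes and lists were chosen with earlier results of these data known, and the comparison of ratios within libraries was added after seeing the values.

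In a test on simulated data for tumor against control with 9955 genes, limma called 89 of the 200 genes given a true log2 difference of 3, each in the right direction, 6 unchanged genes were called, and 0 were called when none was changed.

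Alternatives were a pseudocount of 0.1, rescaling to a sum of 1000000, quantile normalization, no filter, a mean FPKM of at least 10, no trend, the replicate number as a block, log2 of aligned reads as a covariate, and leaving out each library.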

Additional observations from a re-analysis of the deposited data

How the results depend on the processing

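Differences below are on the log2(FPKM + 1) scale. Of 703 recomputed differences, 561 kept their direction and side of the threshold, 77 lost and 4 gained a call, and 61 turned direction. None of those 61 had been called. With the log2 of aligned reads in the fit, no NF-kB gene was called. Nfkbia passed the threshold in 3 and Tnfaip3 in 2 of the 9 fits that left out 1 library. Where an alternative changed a call, the cause was not tested.

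For tumor against control (3 of the 10 genes called), the number called was 1 without a filter, without a trend and with the block, and 0 with aligned reads. Genes called were 254 without a filter and 9 with aligned reads. For GL261 against control (2 called) it was 1 after quantile normalization and without a filter, and 0 after rescaling, without a trend, with the block and with aligned reads. Genes called were 218 without a filter, 230 with the block and 2 with aligned reads, against 347 as reported. For B16 against control (1 called) it was 2 at pseudocount 0.1 and without a filter, and 0 after rescaling, quantile normalization, the block and aligned reads. Genes called were 135 without a filter and 5 with aligned reads, against 210 as reported. For GL261 against B16, genes called were 2 after quantile normalization and 6 without a trend. The wider lists had 5 genes called at pseudocount 0.1 and 0 with aligned reads, and ROC power with its fold minimum called 2 of the 10 genes after LogNormalize scaling. The share of all genes called after that scaling was not counted. The exact permutation test gave 3 to 4 genes under 0.05 with 1 library left out. The filter at a mean FPKM of at least 10 removed Map3k14, Traf3, Nfkb2 and Tnfaip3, which then gave no value, and Map3k14 gave none with any B16 library left out.

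The replicate number as a block left Tnfrsf1a at an adjusted p of 0.0315 and put Nfkbia at 0.0695 and Tnfaip3 at 0.0543. The numbers did not pair the libraries: deviations from group means of same-numbered libraries correlated at -0.03 to 0.04, and not every library correlated best with its own number.

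With 1 library left out, the number of the 10 genes called was 1 to 3 for tumor, 0 to 2 for GL261 and 0 to 0 for B16 against control. Genes called were 245 to 444, 105 to 363 and 69 to 274, and 1 to 4 for GL261 against B16. Uncalled differences that turned direction ranged for tumor against control from -0.33 to 0.21 (Ltbr), -0.20 to 0.18 (Nfkb1), -0.60 to 0.74 (Nfkb2), -0.61 to 0.36 (Rela) and -0.13 to 0.51 (Relb). For GL261 against control they ranged from -0.25 to 0.20 (Ltbr), -1.12 to 0.92 (Nfkb2), -0.94 to 0.16 (Rela) and -0.18 to 0.76 (Relb). For B16 against control they ranged from -0.46 to 0.45 (Ltbr), -0.055 to 0.89 (Nfkb1), -0.32 to 1.02 (Nfkb2), -0.28 to 0.73 (Rela) and -0.14 to 0.50 (Relb). For GL261 against B16 they ranged from -0.40 to 0.51 (Ltbr), -0.14 to 0.079 (Tnfrsf1a), -0.076 to 1.14 (Traf3), -1.66 to 0.37 (Nfkb2), -0.43 to 0.51 (Relb) and -0.69 to 0.89 (Tnfaip3).

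Other settings turned these differences. Rescaling gave -0.18 for Nfkb1 and -0.20 for Rela (tumor against control), -0.26 for Ltbr and -0.0025 for Relb (GL261 against control), and -0.00067 for Ltbr, -0.12 for Relb and -0.0039 for Tnfaip3 (GL261 against B16). Quantile normalization gave -0.24 for Nfkb2 (tumor against control). Aligned reads gave 0.34 for Ltbr (tumor against control), 0.30 for Nfkb1 and 3.66 for Nfkb2 (GL261 against control), 0.57 for Ltbr and -0.35 for Rela (B16 against control), and 0.023 for Tnfrsf1a and 1.18 for Nfkb2 (GL261 against B16).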

Other observations

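Beside the genes called, 3 further canonical targets had all 6 tumor-associated libraries above all 3 controls, as 6.08% of genes tested did. They were picked after their values were seen. Icam1, an adhesion molecule for leukocytes, had 0, 68.4 and 17.5 FPKM in control, 115, 138 and 104 in GL261 and 211, 95.5 and 114 in B16 libraries (limma adjusted p = 0.0577). Csf1, the growth factor of macrophages, had 0 to 0.198 FPKM in control and 1.21 to 12.3 in tumor-associated libraries (adjusted p = 0.0725). Traf1, an adaptor of TNF receptor family signaling, had 0 to 0.291 FPKM in control and 2.38 to 17.3 in tumor-associated libraries (adjusted p = 0.0931). None of the 3 passed the threshold. Csf1 and Traf1 reached 1 FPKM in no control library, so they passed the filter through tumor-associated libraries only. Their separation from control is a description and adds no support.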
